A study of Mus musculus with 4 samples.

Results

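The data concerned 10 genes of adhesion molecules of the immunoglobulin family in cultured mouse melanocytes. They are Nrcam, L1cam, Ncam1, Mcam, Alcam, Cadm1, Cd200, Icam1, Vcam1 and Thy1, chosen by name, and every probe set listed with 1 of them alone was taken, 29 of 45037 in all. The genes are 10 of the 18193 with a probe set of their own on the Affymetrix arrays. RNA was measured on 4 arrays, 1 for each of 4 immortalized melanocyte lines derived from the skin of C57BL/6J pups aged 3 days. All lines were grown to 80% confluency in medium with 10% serum and 200 nM TPA, a phorbol ester that melanocyte cultures need. By the sample labels, lines 10d (male) and 13d (female) carry bcat*, a stable and transcriptionally active form of β-catenin made in the melanocyte lineage, and lines 9v (male) and 14d (female) are WT. The methods of the study give lines 13d and 14d the opposite genotypes, so that 10d and 14d are its bcat* lines and 9v and 13d its WT lines. They also describe the source animals as male, while the labels make these same lines, 13d and 14d, female. Both sources have 10d as bcat* and 9v as WT, and each line is therefore described by name. A line is a single culture established from skin, and the promoter driving bcat* was not named in the article or the labels. Per the methods, G418 treatment had been used to remove fibroblasts from the cultures. Each intensity below is a normalized brightness on a linear scale, and a gene was called detected in a line at 32 or more. Intensities of different probe sets cannot be set against each other, and each line was measured once, so that the spread within a line is unknown.

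Adhesion molecules of the immunoglobulin family are cell-surface proteins with extracellular immunoglobulin domains. Many bind the same molecule on a neighbouring cell, others bind an integrin or a receptor of another family, and their tails tie the contact to ankyrins, proteins of the band-4.1 family or the actin cortex. Melanocytes come from the neural crest and share several of these molecules with neurons and glia, and some, such as Mcam, L1cam and Alcam, are known for their rise in human melanoma. Icam1 and Vcam1 are best known from endothelium and inflamed tissue, and Thy1 from fibroblasts, neurons and T cells.

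Of 11 melanocyte markers, 10 were detected in all 4 lines, Ednrb being the exception. Of the markers of other cells that could carry members of this family, 2 of 9 of fibroblasts, 1 of 7 of endothelium, 1 of 6 measured of keratinocytes, 1 of 4 measured of myelinating Schwann cells and 1 of 7 of leukocytes were detected in any line. The summed intensity of the fibroblast markers was 175 and 143 in lines 10d and 13d and 281 and 102 in lines 9v and 14d. Of the 2 detected, Col1a2 had 80 and 24 in lines 10d and 13d and 175 and 17 in lines 9v and 14d. Postn had 34 and 61 in lines 10d and 13d and 38 and 20 in lines 9v and 14d. The others, such as Col3a1, Dcn and Pdgfra, were under the detection level in each line. Male genes of the Y chromosome and Xist followed the labelled sexes, and Eif2s3y had 1088 and 690 in the male lines 10d and 9v and 13 in both female lines. Ctnnb1, the β-catenin gene, had by its brightest probe set 31799 and 34368 in lines 10d and 13d and 30254 and 31844 in lines 9v and 14d, and the array does not tell the transgene from the endogenous gene. Between 35.8% and 36.1% of all probe sets were detected on each array, and the RNA integrity numbers lay between 9.7 and 9.9.

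Of the 10 genes, 7 were expressed well above the detection level in at least 3 of the 4 lines (Nrcam, L1cam, Ncam1, Mcam, Alcam, Cadm1 and Cd200), Vcam1 lay just above it, and Icam1 and Thy1 were under it in every line. Over the 8 detected genes, the median distance between the highest and the lowest line was 1.37 on the log2 scale, a factor of 2.59. Over all 9415 genes detected in any line, it was 0.84, a factor of 1.79. The genes were chosen with earlier results of these data known, so the wider distance only describes them. The distance was widest for Cd200, at least 210-fold, wider than in 99.9% of detected genes, and lay between 1.97-fold and 3.14-fold for the other 6 well-expressed members.

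**Figure D1:**
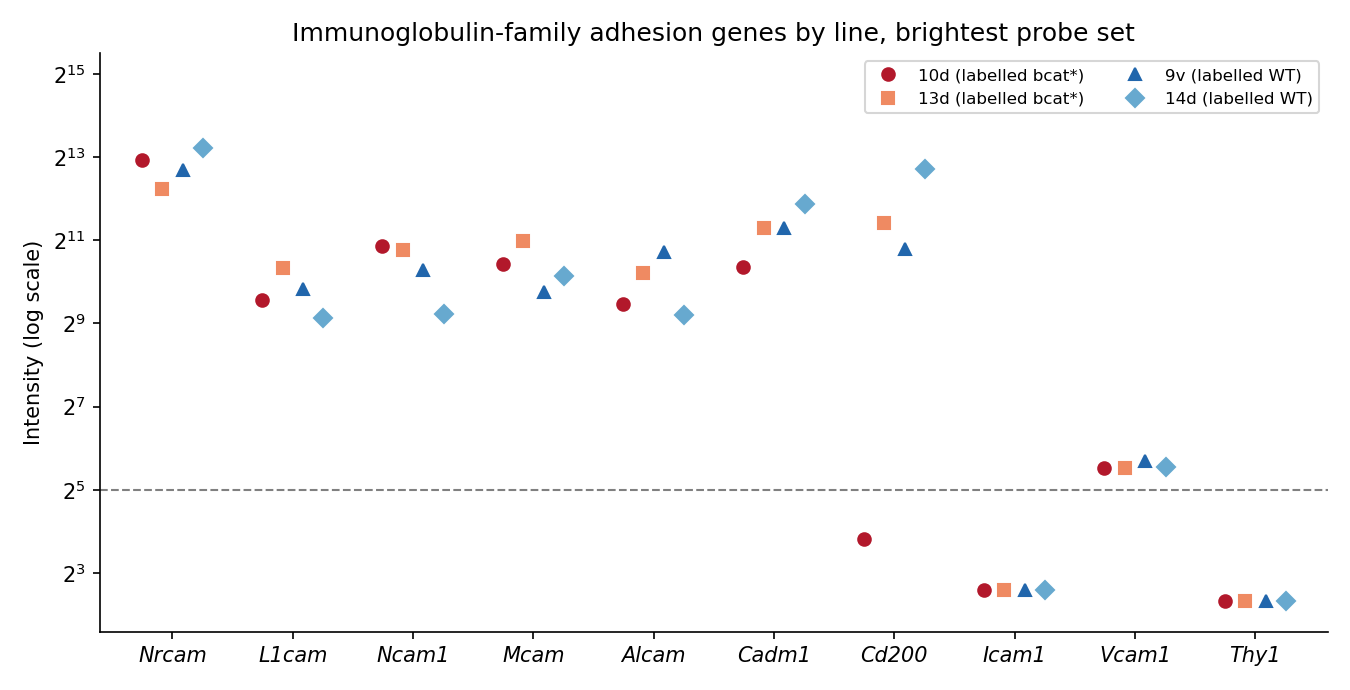
Intensity of the brightest probe set of each of the 10 genes (log scale) in lines 10d and 13d (labelled bcat*) and 9v and 14d (labelled WT), 1 array per line and therefore without error bars, with the detection level of 32 dashed. Cd200 fell under that level in line 10d alone (14), while Icam1 and Thy1 were under it in all 4 lines.

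Cd200, a ligand that quiets myeloid cells through their receptor Cd200r1, differed most between the lines. By its single probe set the intensities were 14 (10d) and 2728 (13d) in the lines labelled bcat*, against 1758 (9v) and 6728 (14d) in those labelled WT. Line 10d lay under the detection level, while the other 3 lines lay far above it. Compared with 9v, line 10d was thus at least 54.9-fold lower, and line 13d was 2.47-fold lower than line 14d, a log2 difference of -1.30. By labels, both male lines lay below both female lines, and sex cannot be told apart here from any other difference between single lines. In RNA from a whole culture, fewer cells with Cd200 and less Cd200 RNA in each cell cannot be told apart. The genes whose profile over the 4 lines came closest to that of Cd200 were Hsd17b11, which encodes a steroid dehydrogenase, with a root mean square difference of 0.736 on the log2 scale, and Dclk1, which encodes a microtubule-associated kinase, with 0.878. Hsd17b11 had 136 and 8332 in lines 10d and 13d and 5623 and 7436 in lines 9v and 14d, and Dclk1 had 7 and 511 in lines 10d and 13d and 935 and 4059 in lines 9v and 14d. The receptor gene Cd200r1 was under the detection level in all 4 lines.

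The window around the start of Cd200 is shown because this gene carried the widest difference. It spans 250 bases before to 50 after the start in the RefSeq annotation of GRCm38.p6, chr16:45409004-45409303 on the minus strand, and is written from 5′ to 3′ with matches to the motifs searched in capitals:
Cd200: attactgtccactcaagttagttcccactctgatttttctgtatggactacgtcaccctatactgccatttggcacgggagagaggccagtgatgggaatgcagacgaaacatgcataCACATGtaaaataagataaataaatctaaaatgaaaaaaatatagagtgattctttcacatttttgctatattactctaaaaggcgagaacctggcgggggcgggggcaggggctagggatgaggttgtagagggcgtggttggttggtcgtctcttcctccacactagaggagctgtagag
The motifs, searched on both strands, were those of Tcf/Lef, the DNA-binding partners of β-catenin (the words CTTTGAA or CTTTGAT and also CTTTGTA or CTTTGTT), the E-box words CATGTG or else CACGTG that Mitf can bind, and a κB word (GGAATTTCC), none of which overlaps another. The capitals mark 1 match, CACATG, which is CATGTG on the other strand and begins at position -132 from the start. No Tcf/Lef word lay in this window, nor in the windows of the other members with an entry (Icam1, Mcam, Nrcam, Alcam and L1cam), 6 of 10 genes in all, while 16.9% of 32851 windows of this length held one and 20.4% held an E-box word.

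Alcam, which binds itself and, on T cells, Cd6, was the other member that differed by at least 2-fold between bcat* line 10d and WT line 9v. Its brightest probe set had 713 in line 10d and 1188 in line 13d, against 1696 in line 9v and 592 in line 14d. The line-to-line pattern was shared by its 4 detected probe sets, which gave ratios of line 10d to line 9v between 0.364 and 0.422 and of line 13d to line 14d between 1.88 and 2.31. Alcam was thus lower in 10d than in 9v but higher in 13d than in 14d, with log2 differences of -1.25 and 1.0 by the brightest probe set. Lines 10d and 14d, which the methods call bcat*, were the lower pair and did not overlap with lines 9v and 13d. Its remaining probe set was under the detection level in all lines, at 7 to 14. The Alcam partner Cd6 was under the detection level, as were Itgal and Itgb2, the integrin chains of leukocytes.

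**Figure D2:**
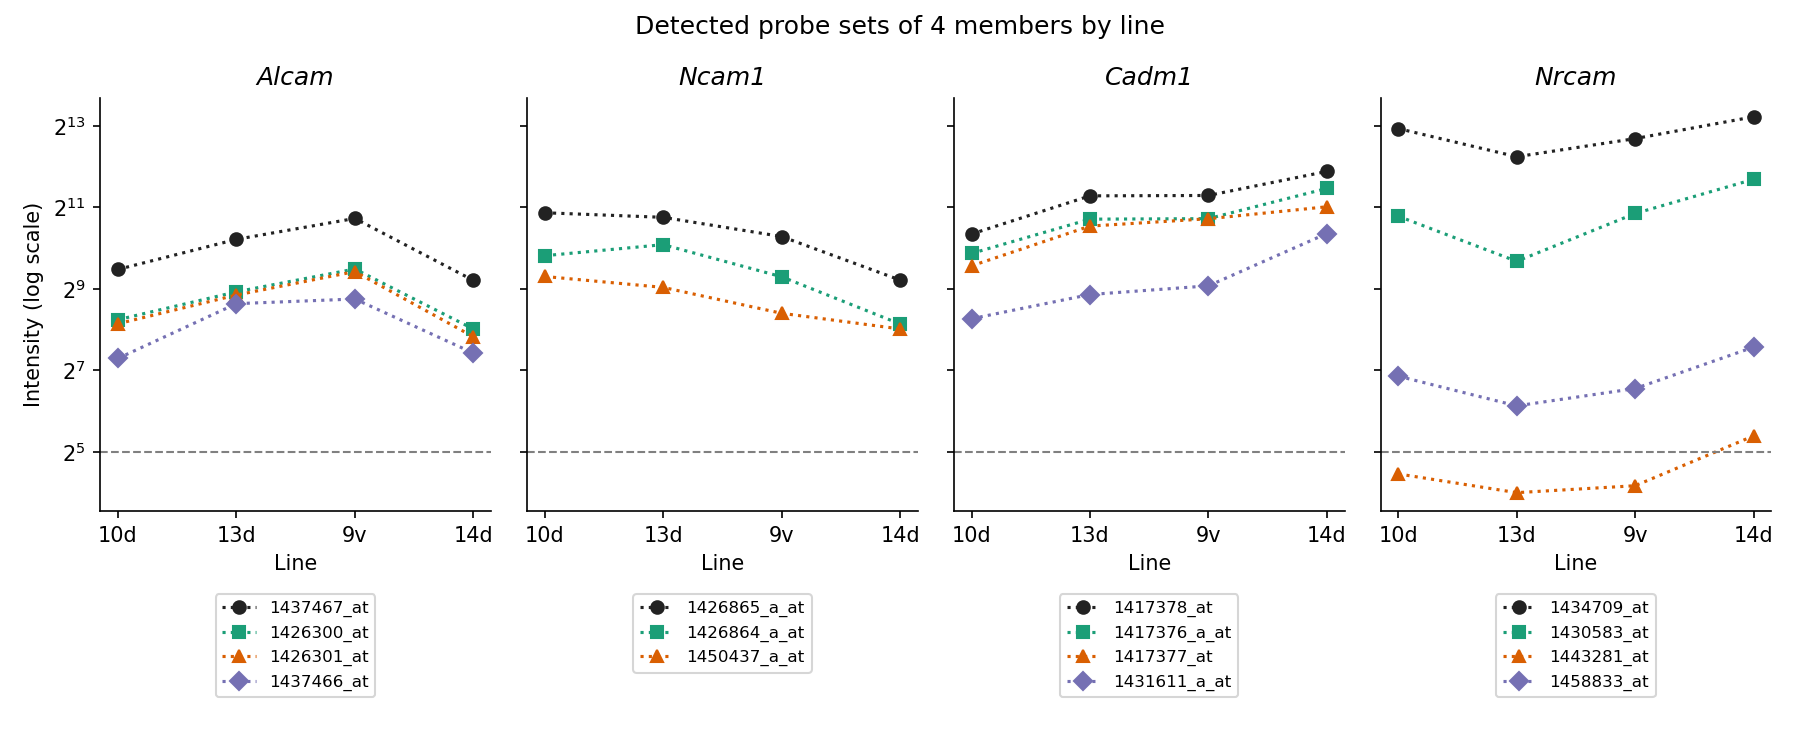
Intensity (log scale) of the detected probe sets of Alcam, Ncam1, Cadm1 and Nrcam in lines 10d, 13d, 9v and 14d, 1 array per line, where dotted lines only join values of the same probe set and the dashed line is the detection level of 32. The 4 Alcam probe sets run nearly parallel, with ratios of line 10d to line 9v from 0.364 to 0.422, while in Nrcam the order of lines 10d and 9v differs between probe sets.

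The L1 family was represented by Nrcam and L1cam, whose tails bind ankyrins. Nrcam had 7820 in line 10d and 4844 in line 13d, against 6593 in line 9v and 9553 in line 14d, by its brightest probe set. Line 14d was highest and line 13d lowest in each of its 4 probe sets, and the ratio of line 13d to line 14d ran from 0.248 to 0.507. Lines 10d and 9v were close, with ratios from 0.954 to 1.23 that did not all go the same way. The dimmest Nrcam probe set was detected in line 14d alone, at 42. L1cam, which binds itself and integrins, had 759 in line 10d and 1293 in line 13d, against 915 in line 9v and 560 in line 14d. Line 13d was 2.31-fold higher than line 14d, while line 10d stood at 0.830 times line 9v. The other L1cam probe set was under the detection level, at 6 to 21, and had the same order of lines. Nrcam and L1cam thus ran opposite ways between lines 13d and 14d.

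Ncam1, a neural adhesion molecule that is modified with polysialic acid in development, had 1868 in line 10d and 1728 in line 13d, against 1247 in line 9v and 595 in line 14d. Both lines labelled bcat* lay above both lines labelled WT in all 3 detected probe sets, and line 14d was lowest in each. The ratio of line 10d to line 9v ran from 1.43 to 1.87 and that of line 13d to line 14d from 2.03 to 3.85 over these probe sets. The remaining 4 of its 7 probe sets were under the detection level in every line, at 4 to 21. Which Ncam1 transcripts each probe set reads was not looked up. The polysialyltransferase genes St8sia2 and St8sia4 were under the detection level in all 4 lines.

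Mcam, an adhesion molecule of endothelium and of human melanoma, had 1386 in line 10d and 2036 in line 13d, against 871 in line 9v and 1127 in line 14d. Both lines labelled bcat* lay above both labelled WT lines, the closest being 10d and 14d, at 1386 and 1127. Line 10d was 1.59-fold above line 9v, and line 13d was 1.81-fold above line 14d. It was measured by a single probe set. Its ligand gene Lama4, a laminin chain, had 1377 and 2152 in lines 10d and 13d and 1245 and 2054 in lines 9v and 14d. Of the endothelial markers, Vwf was the 1 detected, with 76 and 52 in lines 10d and 13d and 182 and 6 in lines 9v and 14d, an order that differs from that of Mcam, and Cdh5, Kdr and Tek were under the detection level in each line.

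Cadm1, which binds itself and other nectin-like molecules and is anchored to the cortex through band-4.1 proteins, had 1301 in line 10d and 2490 in line 13d, against 2506 in line 9v and 3771 in line 14d. All 4 of its probe sets were detected and placed the lines in 1 order, 14d highest, then 9v, 13d and 10d. The middle pair, 13d and 9v, had 2490 and 2506 by the brightest probe set, so that the labelled groups were parted there by a very small distance. The ratio of line 10d to line 9v ran from 0.449 to 0.571 over the probe sets and that of line 13d to line 14d from 0.355 to 0.720.

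Icam1, the ligand of the leukocyte integrin of Itgal and Itgb2, stood at an intensity of 6 in every line, and Thy1, a lipid-anchored surface protein, had 5 in every line, by 1 probe set each. Vcam1, the ligand of the integrin of Itga4 and Itgb1, had 46 in lines 10d and 13d, against 52 and 47 in lines 9v and 14d, by 1 of its 3 probe sets, while the other probe sets had 7 to 12. Its log2 difference between lines 10d and 9v was -0.18 and turned to 0.02 with arrays centred on their medians, so that no direction is given. The window of Icam1 is shown because κB sites are known from its promoter and because it was the 1 member window with a κB word, at chr9:21015690-21015989 on the plus strand of GRCm38.p6, with motif matches in capitals:
Icam1: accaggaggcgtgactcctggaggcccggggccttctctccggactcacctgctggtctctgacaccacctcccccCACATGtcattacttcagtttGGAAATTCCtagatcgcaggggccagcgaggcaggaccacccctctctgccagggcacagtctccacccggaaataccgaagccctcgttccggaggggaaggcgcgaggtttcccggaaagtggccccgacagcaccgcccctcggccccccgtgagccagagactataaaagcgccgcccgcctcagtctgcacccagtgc
The capitals mark CACATG, the E-box word, at position -174 from the start, and GGAAATTCC, which is GGAATTTCC on the other strand, at position -153. The κB word was present in 0.317% of all windows of this length. Of 14 measured genes of the NF-κB pathway, which acts through such sites, 11 were detected in at least 1 line. Nfkbia, the inhibitor that NF-κB itself induces, had 2262 and 3630 in lines 10d and 13d and 2876 and 7224 in lines 9v and 14d. Between lines 10d and 9v, 0 of the 9 genes detected in either line were at least 2-fold apart, against 17.9% of all genes. Between lines 13d and 14d, 2 of 11 were at least 2-fold higher and 1 was lower, against 19.7% of all genes in either direction. A match of letters shows neither binding nor its absence.

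Line 10d was then compared with line 9v, the pair on which both sources give the same genotypes, to ask which members differ between a bcat* and a WT line. With values raised to the detection level, 0 of 8 detected members were at least 2-fold higher and 2, Alcam and Cd200, were at least 2-fold lower. Over all 9131 genes detected in either line, 17.9% differed by at least 2-fold, 7.85% higher and 10.0% lower, so that the members' count lay near that of all genes. Of the others, Cadm1 had a log2 difference of -0.95, Mcam of 0.67, Ncam1 of 0.58, L1cam of -0.27 and Nrcam of 0.25. The median absolute log2 difference was 0.63 over the 8 members and 0.42 over all genes. With 1 array per line, these differences have no replicate check. Just outside the threshold lay Cadm1, 1.93-fold lower, and just inside it Alcam, 2.38-fold lower.

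Line 13d differed from line 14d in more of these genes. L1cam, Alcam and Ncam1 were at least 2-fold higher and Cd200 at least 2-fold lower in line 13d, 4 of 8 members, against 19.7% of all 9213 genes detected in either line (11% higher and 8.73% lower). Over the 6 possible pairs of lines, between 1 and 4 members differed by at least 2-fold, and the share of all genes that did ran from 13.0% (13d and 9v) to 23.9% (10d and 14d). The members that differed were not the same in each pair. Mcam was the 1 that differed between 13d and 9v, and Ncam1, Cd200 and Cadm1 differed between 10d and 14d. The sources disagree on which of lines 13d and 14d carries bcat*, so the sign of their difference has no settled direction of genotype.

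**Figure D3:**
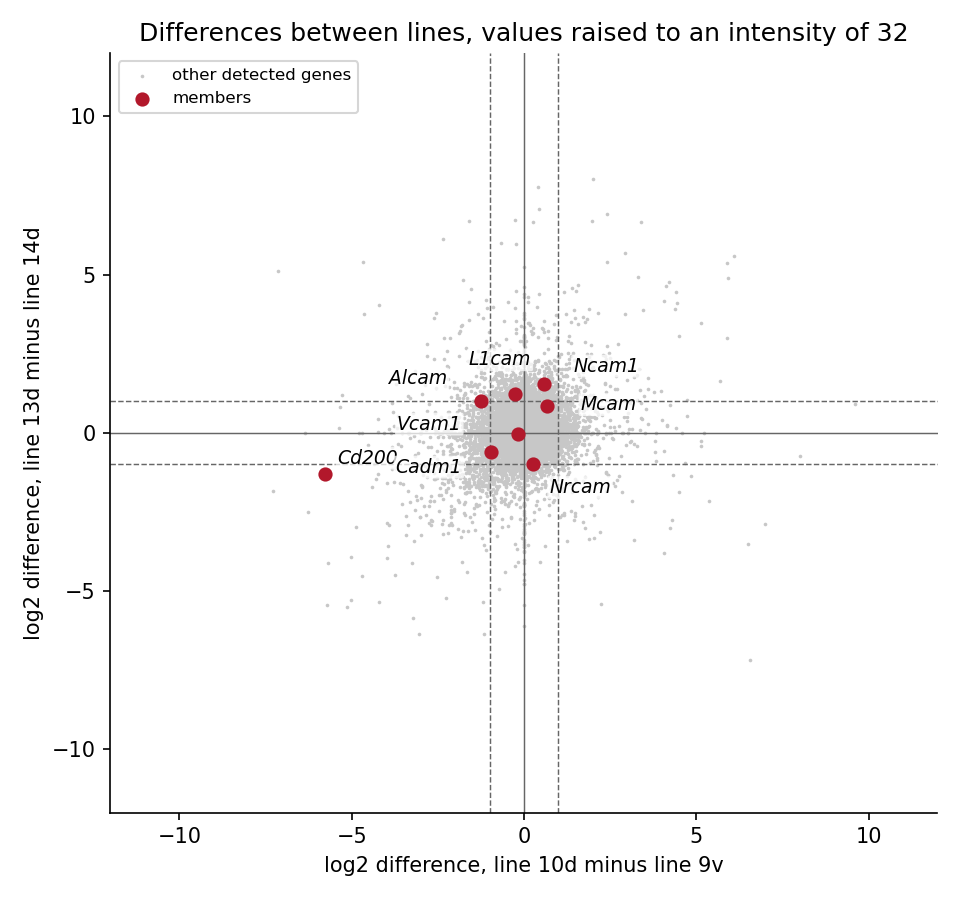
Log2 difference between lines 10d and 9v (horizontal axis) and between lines 13d and 14d (vertical axis) for the 8 detected members (red) and all other detected genes (grey), with values raised to the detection level of 32 and the 2-fold lines dashed. Alcam lies at -1.25 and 1.0, Cd200 at a bound of -5.78 on the horizontal axis and -1.30 on the vertical axis, and Mcam, Ncam1 and Cadm1 lie where both differences have 1 sign.

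Grouping by the labels, the 2 bcat* lines were set against the 2 WT lines. Ncam1 had the largest difference among members whose groups did not overlap, with a mean log2 intensity of 10.81 ± 0.08 in labelled bcat* lines and 9.75 ± 0.75 in labelled WT lines (SD, n = 2 each), a log2 difference of 1.06 with a standard error of 0.44 (limma, adjusted p = 0.659). Mcam had a mean of 10.71 ± 0.39 in labelled bcat* and 9.95 ± 0.26 in labelled WT lines, a log2 difference of 0.76 ± 0.33 (SE, limma, adjusted p = 0.661). Cadm1 had 10.81 ± 0.66 in labelled bcat* and 11.59 ± 0.42 in labelled WT lines, a log2 difference of -0.77 ± 0.44 (SE, limma, adjusted p = 0.717). The difference of Cd200 was -4.14 ± 2.71 on values as deposited (SE, limma, adjusted p = 0.722), which in line 10d lie under the detection level, and -3.54 ± 2.38 on values raised to that level (SE, limma, adjusted p = 0.741). It was -0.33 without line 10d, and -2.84 on values as deposited with the genotypes of lines 13d and 14d exchanged. Nrcam, L1cam and Alcam overlapped between the labelled groups, with log2 differences of -0.37, 0.47 and -0.12. No member passed an adjusted p of 0.05 in limma's test over 9415 genes, and none had an unadjusted p under 0.05. Over all genes, 0.00% passed after adjustment and 7.85% before it (3.17% higher and 4.68% lower). The labelled groups did not overlap in 4 of 8 detected members (Mcam and Ncam1 higher in the bcat* lines, Cadm1 lower, and Vcam1 lower by 1 unit of intensity between 46 and 47, a difference of -0.01 in the means with median centring), against 37.9% of all detected genes (18.4% higher and 19.5% lower). With a gap of at least 2-fold asked between the groups, 0 of 8 members and 3.00% of all genes were left (1.02% higher and 1.98% lower).

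With lines 13d and 14d exchanged, as the methods of the study give them, other members stood apart. Alcam had a mean log2 intensity of 9.34 ± 0.19 in lines 10d and 14d and 10.47 ± 0.36 in lines 9v and 13d (SD, n = 2 each), a log2 difference of -1.13 ± 0.32 (SE) that did not pass adjustment (limma, adjusted p = 0.97, unadjusted p = 0.0232). L1cam was lower in lines 10d and 14d than in lines 9v and 13d, with a log2 difference of -0.74 ± 0.34 (SE, limma, adjusted p = 0.97). Nrcam was higher there by its brightest probe set, with a log2 difference of 0.61 ± 0.25 (SE, limma, adjusted p = 0.97). A second bright probe set of Nrcam overlapped between these groups, with 1761 and 3298 in lines 10d and 14d and 1845 and 818 in lines 9v and 13d. In this grouping 3 of 8 detected members did not overlap (Nrcam higher, L1cam and Alcam lower), against 30.2% of all detected genes (16.1% higher and 14.1% lower). A gap of at least 2-fold was met by 0 of 8 members and by 1.14% of all genes (0.404% higher and 0.733% lower). In limma's test 0.00% of all genes passed after adjustment and 3.74% before it (1.20% higher and 2.54% lower). Mcam, Ncam1 and Cadm1 then overlapped, with log2 differences of -0.09, -0.48 and -0.17. Which members did not overlap between the groups thus differed between the 2 sources. In both groupings the members' count lay near the share of all genes, so that no member is read as parted by genotype.

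Among the known binding partners and processing enzymes of the members, 19 of 33 were detected, and the widest differences between lines 10d and 9v were in Itga4 and Epb41l3, which bind Vcam1 and Cadm1. Itga4, the integrin chain that binds Vcam1, had 62 in line 10d and 4 in line 13d, against 583 in line 9v and 1852 in line 14d. Both labelled bcat* lines lay at least 9.40-fold below both labelled WT lines (log2 difference -6.04 ± 1.5 as deposited, SE, limma, adjusted p = 0.555). Of its other probe sets, those detected had the same direction, the brightest of them with 16 and 5 in lines 10d and 13d and 135 and 439 in lines 9v and 14d. Its partner chain Itgb1 was detected in every line, with 5076 and 8452 in lines 10d and 13d and 7596 and 8966 in lines 9v and 14d. Itgb3, a chain of integrins that bind L1cam and Thy1, had 9 and 31 in lines 10d and 13d, against 94 and 67 in lines 9v and 14d. With values raised to the detection level, its gap between the labelled groups was 2.09-fold, just past the threshold. Its other probe set was under that level in every line, at 5 to 6.

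Epb41l3, a band-4.1 protein that binds the tail of Cadm1, had 507 in line 10d and 321 in line 13d, against 2146 in line 9v and 2402 in line 14d. The gap between the labelled groups was 4.23-fold, and a second probe set had 144 and 64 in lines 10d and 13d against 787 and 1146 in lines 9v and 14d. The log2 difference was -2.49 ± 0.33 (SE, limma, adjusted p = 0.418). In both Epb41l3 and Cadm1 the labelled bcat* lines were the lower ones, but in Cadm1 lines 13d and 9v were nearly equal (2490 and 2506). Ezr, an actin linker, was 2.81-fold higher in line 10d than in line 9v by its brightest probe set (1029 against 366), but its other probe set had 257 and 259 in these lines. Chosen after their values were seen, Tiam1, an exchange factor that can bind Cadm1, had 59 and 131 in lines 10d and 13d and 5 and 4 in lines 9v and 14d, and Bace1, a protease that cleaves surface proteins, had 1641 and 1555 in lines 10d and 13d and 840 and 759 in lines 9v and 14d. Of the 19 detected partners, 3 were parted by a gap of at least 2-fold (Itga4, Itgb3 and Epb41l3, each lower in the labelled bcat* lines) and 0 were higher, against 3.00% of all detected genes, and 0 passed limma's adjusted p, with 5 at an unadjusted p under 0.05, against 7.85% of all genes. With the genotypes of lines 13d and 14d exchanged, 0 were parted in this way. Between lines 10d and 9v, 1 was at least 2-fold higher and 3 were lower, against 7.85% higher and 10.0% lower of all genes, with a median log2 difference of 0.02, beside 0 over all genes.

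**Figure D4:**
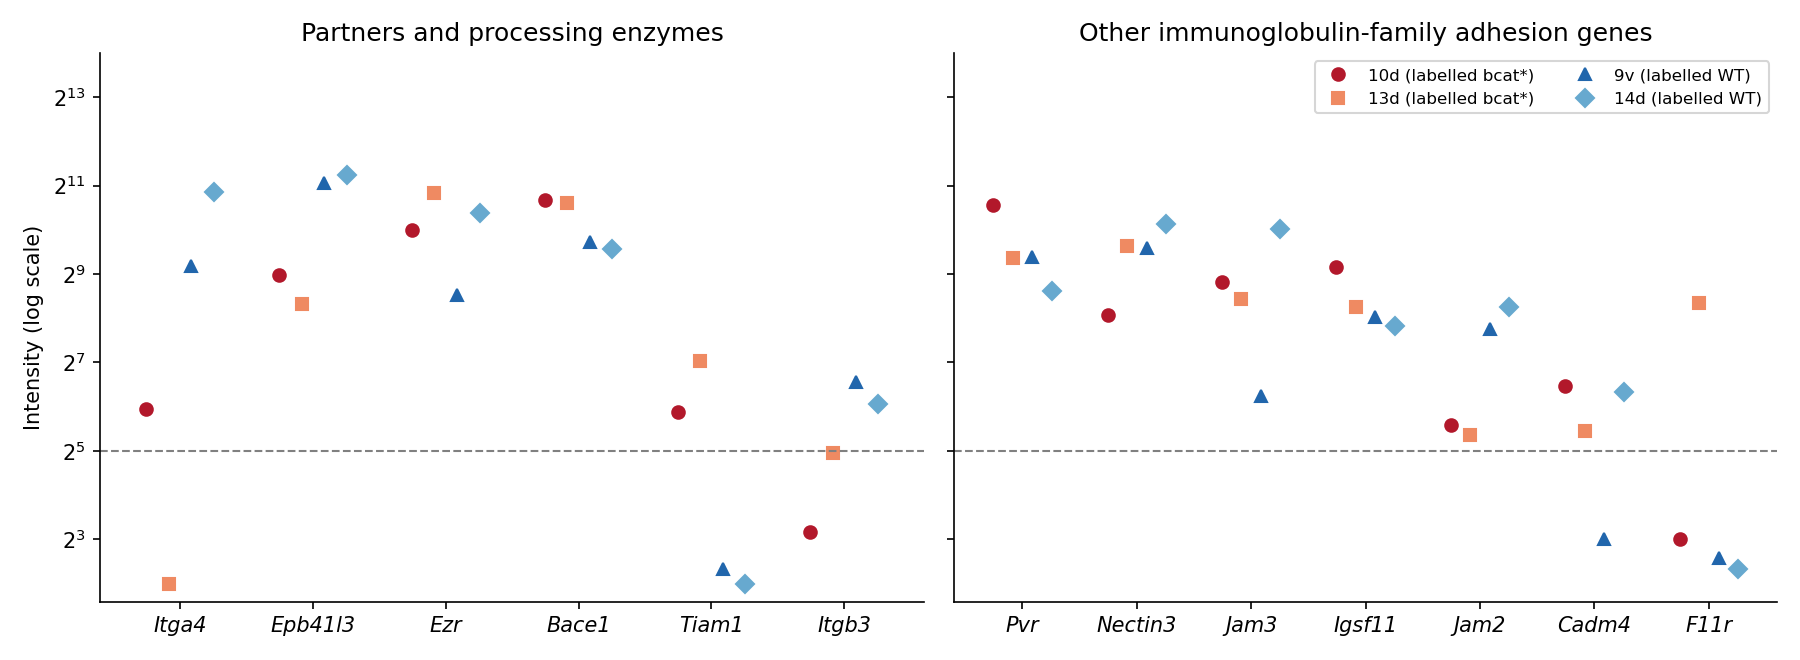
Intensity (log scale) of partner and processing genes (left) and of other adhesion genes of the immunoglobulin family (right) in lines 10d and 13d (labelled bcat*) and 9v and 14d (labelled WT), 1 array per line and without error bars, with the detection level of 32 dashed. Itga4, Epb41l3, Itgb3 and Jam2 are lower in both labelled bcat* lines, and Tiam1, Bace1 and Igsf11 are higher in both. F11r is detected in line 13d alone (327).

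The wider family was taken as a list of 40 genes, of which 39 were measured and 13 were detected in at least 1 line. Bsg and Nptn, relatives that chaperone membrane transporters, and Mpzl1 were detected throughout and spanned less than 2-fold. Jam2, a junctional adhesion molecule, had 48 in line 10d and 41 in line 13d, against 215 in line 9v and 307 in line 14d, a log2 difference of -2.53 ± 0.37 between the labelled groups (SE, limma, adjusted p = 0.418). A second probe set had 18 and 22 in lines 10d and 13d against 214 and 301 in lines 9v and 14d. Jam3, its relative, had 453 and 344 in lines 10d and 13d and 76 and 1031 in lines 9v and 14d. The labelled WT lines thus lay on both sides of the labelled bcat* lines. By the genotypes in the methods, the bcat* lines 10d and 14d (453 and 1031) both lay above the WT lines 9v and 13d (76 and 344). Nectin3 was 2.84-fold lower in 10d than in 9v (270 against 766), and Cadm4, a relative of Cadm1, was at least 2.78-fold higher (89 against 8). Lines 13d and 14d had 789 and 1130 for Nectin3 and 44 and 81 for Cadm4, so that Cadm4 was under the detection level in line 9v alone. F11r, named after its value was seen, was detected in line 13d alone, at 327, against 5 to 8 in the other lines. In all, 4 of the 11 genes detected in line 10d or 9v were at least 2-fold higher and 2 lower in line 10d, against 7.85% higher and 10.0% lower of all genes. Between the labelled groups 1 of 13, Jam2, was parted by at least 2-fold, against 3.00% of all genes. In limma's test 0 passed the adjusted p and 1 of 13 had an unadjusted p under 0.05, against 7.85% of all genes. Pecam1, Icam2 and Madcam1, members known from endothelium, were under the detection level in all 4 lines.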

How the data were processed

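RNA of 4 mouse melanocyte lines, 1 array each, was measured. The authors deposited 1 intensity per probe set, on a linear scale in whole numbers from 2 upwards. GCRMA is named in the submitters' processing notes without a version. Ratios of dim probe sets are coarse because values were rounded, and precision is limited by the 4 arrays. Since the planned analysis expected a log2 scale, values were log2-transformed. Probe sets were named through the platform annotation (34945 of 45037 with 1 gene, 932 with several, 9160 not listed), and each gene took the values of its brightest probe set by mean log2 over the arrays. Counts used values raised to an intensity of 32, the detection level, and folds against a line under it are lower bounds.

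Lines 10d and 9v, with 1 array each, were compared without a test. Labelled genotypes were compared with limma (version 3.58.1, R 4.3.3; intensity trend, Benjamini-Hochberg adjustment over 9415 genes, threshold 0.05). Lines are separate cultures, 2 per labelled genotype, so the tests set each difference against the spread between lines. For each gene limma draws this spread toward a trend with intensity over all tested genes. With 1 array per line, differences between lines and between arrays cannot be told apart. Sequences came from RefSeq tables of GRCm38.p6, and Python 3.11.15 with pandas 2.3.3 was used. All members are named, as are up to 4 genes of each list at least 2-fold apart between lines 10d and 9v with the largest differences. Genes that illustrate a member's partner or a marker were also named after their values were seen. Members and lists were chosen with earlier results of these data known, so their shares beside those of all genes are descriptions only.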

Additional observations from a re-analysis of the deposited data

Results flagged for a closer look

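In 3 members the difference between lines 10d and 9v, labelled male, and that between lines 13d and 14d, labelled female, had opposite signs. L1cam had log2 differences of -0.27 (10d minus 9v) and 1.21 (13d minus 14d). Alcam had -1.25 and 1.0 in the same order, and Nrcam had 0.25 and -0.98, each by its brightest probe set. The second brightest Nrcam probe set had -0.07 and -2.01, the same sign in both pairs, while its dimmer ones went as the brightest did. The difference between the pairs was not tested, since each line has 1 array. With the genotypes of lines 13d and 14d exchanged, as in the methods of the study, every second difference changes sign. The 3 genes, picked for opposite signs, then run the same way by their brightest probe sets, which does not tell the sources apart. Mcam, Ncam1, Cadm1 and Cd200, which ran the same way in both pairs as labelled, then run opposite ways.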

How the results depend on the processing

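Between lines 10d and 9v, 4 members were apart at a threshold of 1.5-fold (Mcam and Cadm1 added) and 1 at 3-fold (Cd200), against 2 at 2-fold. The count of members parted by a 2-fold gap between the labelled groups, 0, ran from 0 to 2 with 1 line left out: 1 without line 13d (Cd200) and 2 without line 9v (Ncam1 and Cd200). Members past limma's threshold numbered 0 in every setting run. With lines 13d and 14d exchanged, the labelled differences reversed for Mcam (-0.09), L1cam (-0.74), Ncam1 (-0.48) and Nrcam (0.61). With 1 line left out, the difference of Alcam ran from -0.88 to 0.64 (0.25 without line 10d and 0.64 without line 9v) and that of Cd200 from -7.94 to -0.33. The bound for Cd200 in line 10d against line 9v was -6.78 at a detection level of 16 and -4.78 at 64. Beside these, 134 differences of single members and 32 counts kept their call in the alternatives run. Of these Vcam1 alone changed sign, to 0.02 between lines 10d and 9v with median centring. A labelled difference kept its call if its sign held and it still did not pass the adjusted p of 0.05, whatever its size. The values of -7.94 and -0.33 for Cd200 are among those kept. Detection levels of 16 and 64 leave the differences of bright members unchanged, so these totals do not measure robustness. Over all genes, limma called 0 genes with the settings reported, 8 with the mean of all probe sets, 4 with median centring and 232 with no filter on dim genes; the cause was not tested. Median centring moved the median difference between lines 10d and 9v by 0.193. The array medians it used were rounded intensities under the detection level, 7 in line 10d and 8 in lines 13d, 9v and 14d. With quantile normalization the median difference was 0.009. With the labelled sex as a covariate, which sets 10d against 9v and 13d against 14d, limma called 0 of 9415 genes (708 at an unadjusted p under 0.05) and no call on a member changed. Other than this fit by sex, no paired analysis was run.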
